A study of Mus musculus with 8 samples.

Results

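Conjugating enzymes of the second phase of detoxification were examined in mouse primary hepatocytes that had been cultured on a soft or a stiff hydrogel, with or without the mechanosensitive transcriptional co-activators YAP and TAZ. The members were chosen by name and biotype alone, as the protein-coding rows of the deposited count table whose symbols are those of glutathione S-transferases (Gst), microsomal glutathione S-transferases (Mgst), UDP-glucuronosyltransferases (Ugt1 to Ugt3) or sulfotransferases (Sult). This gave 68 of the 56748 genes in the table, of which 53 passed the filter on low counts and were tested among 14279 genes in all. Of the 15 members that were not tested, 6 had no count in any library (Gstt4, Ugt2a1, Ugt2a2, Sult1c1, Sult2a4 and Sult2a6), and 9 stayed at or below 0.578 CPM in each library, CPM being a gene's counts scaled to a common library size.

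Hepatocytes came from Yap fl/fl;Taz fl/fl mice on a C57BL/6J background that had received a virus at 7 to 8 weeks of age. AAV8-TBG-Cre, which expresses Cre recombinase from the hepatocyte-specific TBG promoter, gave the Yap/Taz HepKO (knockout) cells, and AAV8-TBG-Null gave the wild-type cells, which therefore carried the floxed alleles too. Cells were isolated 10 days later and kept for 24 h on collagen-coated polyacrylamide hydrogels of 1 kPa (soft) or 20 kPa (stiff), with 2 libraries in each of the 4 groups. Nothing in the labels ties the libraries to separate animals, so that the p-values below measure the spread between these libraries, which may be technical. The sources name both sexes for the mice, and in the data Xist was at 240.0 ± 7.02 to 340.0 ± 14.3 CPM (SD, n = 2) in the group means while the Y-linked genes Ddx3y, Kdm5d, Uty and Eif2s3y had no count in any of the 8 libraries.

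Conjugation makes lipophilic drugs, hormones, bilirubin and reactive by-products of lipid oxidation more soluble, and the liver is the main site where it takes place. Glutathione S-transferases attach glutathione to electrophiles, UDP-glucuronosyltransferases attach glucuronic acid from UDP-glucuronate, and sulfotransferases attach sulfate from the donor PAPS. The conjugates leave the hepatocyte through ATP-driven transporters toward bile or blood. Many of these genes lie in clusters of close copies, and the Ugt1a genes are alternative first exons that are spliced to one shared set of downstream exons.

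Library totals were between 18324083 and 26442310 counts, and a count of 0 allows up to 3 counts, or 0.113 to 0.164 CPM depending on the library, a limit that covers counting error only. Yap1 was at 97.7 ± 3.01 CPM (SD, n = 2) in wild-type cells on the soft hydrogel and at 138.0 ± 4.07 on the stiff hydrogel, against 30.5 ± 1.89 and 29.9 ± 2.08 in knockout cells. Wwtr1, which encodes TAZ, was at 42.0 ± 0.663 and 64.6 ± 0.956 CPM in wild-type cells and at 16.3 ± 0.396 and 14.7 ± 1.42 in knockout cells, so that both targeted genes followed the labels. The 12 hepatocyte markers, mostly Alb, summed to 102000 CPM in the wild-type soft libraries and 106000 to 108000 in the wild-type stiff libraries, but to 71100 to 71600 in the knockout libraries. Of these 12, Tat, Tdo2 and Hnf4a fell and Ass1 rose in wild-type stiff against soft, and 3 were higher and 5 lower in knockout than in wild-type cells on the stiff hydrogel. In the latter comparison 13.7% of all tested genes were higher and 15.0% lower. Markers of other liver cells summed to much less than the hepatocyte markers and moved with the groups. The 12 stellate cell and fibroblast markers summed to 38.8 to 39.3 CPM in wild-type soft, 26.6 to 27.7 in wild-type stiff and 55.3 to 59.3 in the knockout libraries. The 10 endothelial markers gave 101 to 106, 63.1 to 67.9 and 133 to 147 CPM in the same order, and the 10 Kupffer cell and macrophage markers 71.7 to 72.5, 51.4 to 55.0 and 99.2 to 105. The 10 cholangiocyte markers, mostly Spp1, gave 572 to 603, 622 to 626 and 341 to 367 CPM, with Cftr at 0 counts throughout. Krt19, also of this list, was at 2.13 ± 0.448 (soft) and 20.6 ± 0.638 CPM (stiff) in wild-type cells. In knockout cells Krt19 was at 0.637 ± 0.294 (soft) and 0.697 ± 0.00763 CPM (stiff). In wild-type stiff against soft 9.26% of all tested genes fell and 10.0% rose. In that comparison 4 of 10 tested stellate, 5 of 10 endothelial, 4 of 10 Kupffer and 1 of 6 tested cholangiocyte markers fell, and 1 stellate and 1 cholangiocyte marker (Col1a1 and Krt19) rose. Their part in the results below was not tested, and in bulk RNA fewer cells of a type and less RNA per cell cannot be told apart.

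The sequences just upstream of the start sites are shown for members that the results turn on, each as the 150 bases before the start and the first 5 bases from it, from RefSeq promoters on GRCm38.p6, 5′ to 3′ on the gene's own strand. Capitals mark matches to 5 short motifs searched on both strands: TGACNNNGC (antioxidant response, N being any base), GCGTG (the Ah receptor core), GGAATG (the TEAD core), CAAAGTCCA (HNF4) and GTTAAT (part of the HNF1 site). The Gsta genes are shown because all tested members of the alpha class fell together, and Gsta1 and Gsta2 were identical at 130 of 160 aligned positions (81.2%) of this stretch.
Gsta1 (chr9:78230519-78230673, plus strand): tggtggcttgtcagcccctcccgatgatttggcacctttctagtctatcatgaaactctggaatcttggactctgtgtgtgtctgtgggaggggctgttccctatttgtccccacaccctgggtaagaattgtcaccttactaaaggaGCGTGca
Gsta2 (chr9:78347141-78347295, minus strand): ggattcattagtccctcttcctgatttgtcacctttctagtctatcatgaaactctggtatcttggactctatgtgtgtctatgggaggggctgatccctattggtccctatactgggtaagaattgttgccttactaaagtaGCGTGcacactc
Gsta3 (chr1:21240435-21240589, plus strand): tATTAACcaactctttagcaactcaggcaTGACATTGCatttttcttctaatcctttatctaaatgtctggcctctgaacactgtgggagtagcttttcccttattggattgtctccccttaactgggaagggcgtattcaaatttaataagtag
The Ugt1a first exons are shown because neighbours in this locus moved differently, Ugt1a6a falling in wild-type stiff cells while Ugt1a5 did not. That fall of Ugt1a6a rests on 39 and 18 counts (soft) and 15 and 5 counts (stiff), and its call was lost in some alternatives, as given below. Between Ugt1a6a and Ugt1a5 73 of 163 aligned positions were identical (44.8%), and between Ugt1a6a and Ugt1a1 87 of 169 (51.5%).
Ugt1a9 (chr1:88070629-88070783, plus strand): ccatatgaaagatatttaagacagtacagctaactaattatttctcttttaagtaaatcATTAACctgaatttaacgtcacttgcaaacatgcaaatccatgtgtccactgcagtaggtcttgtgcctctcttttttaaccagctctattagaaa
Ugt1a6a (chr1:88134659-88134813, plus strand): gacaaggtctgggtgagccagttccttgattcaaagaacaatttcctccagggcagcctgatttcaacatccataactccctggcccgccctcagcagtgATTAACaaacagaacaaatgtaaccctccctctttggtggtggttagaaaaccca
Ugt1a5 (chr1:88165862-88166016, plus strand): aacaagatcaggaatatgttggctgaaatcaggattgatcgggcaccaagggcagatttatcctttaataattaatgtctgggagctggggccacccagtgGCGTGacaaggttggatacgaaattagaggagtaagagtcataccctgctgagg
Ugt1a1 (chr1:88211809-88211963, plus strand): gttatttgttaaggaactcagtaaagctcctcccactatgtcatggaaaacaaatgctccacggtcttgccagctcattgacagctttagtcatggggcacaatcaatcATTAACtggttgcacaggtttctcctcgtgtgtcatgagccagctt
Ugt2b36 and Ugt2b5 are neighbours on the same strand with opposite fold changes, yet they were identical at 112 of 167 aligned positions (67.1%) and none of the 5 motifs occurred in either stretch.
Ugt2b36 (chr5:87092551-87092705, minus strand): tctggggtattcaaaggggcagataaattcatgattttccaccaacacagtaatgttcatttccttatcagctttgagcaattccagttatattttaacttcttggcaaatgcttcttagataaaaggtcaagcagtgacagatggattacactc
Ugt2b5 (chr5:87140336-87140490, minus strand): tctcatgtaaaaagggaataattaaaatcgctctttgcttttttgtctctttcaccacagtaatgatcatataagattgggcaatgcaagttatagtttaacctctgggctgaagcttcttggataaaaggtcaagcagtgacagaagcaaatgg
Sult1d1 and Sult1e1 are the sulfotransferase genes that fell.
Sult1d1 (chr5:87569002-87569156, minus strand): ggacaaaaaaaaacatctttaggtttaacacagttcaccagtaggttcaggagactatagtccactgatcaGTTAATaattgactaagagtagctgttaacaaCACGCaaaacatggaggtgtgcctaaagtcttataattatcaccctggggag
Sult1e1 (chr5:87591607-87591761, minus strand): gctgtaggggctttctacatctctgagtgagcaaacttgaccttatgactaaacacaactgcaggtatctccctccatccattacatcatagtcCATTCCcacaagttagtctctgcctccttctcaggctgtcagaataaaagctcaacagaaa
Of the 68 members 59 had a promoter in the table, and over the full 300 bases (250 before the start and 50 from it) 14 of the 59 (23.7%) held the HNF1 motif, against 8.24% of 27025 genes with a promoter. The antioxidant response motif was in 6.78% of the member genes and in 14.0% of all genes, the Ah receptor core in 20.3% and 35.2%, the TEAD core in 18.6% and 16.6%, and the HNF4 motif in 1.69% and 0.555%. Among the 16 members with a promoter that fell in wild-type stiff cells, 4 held the HNF1 motif, 4 the Ah receptor core, 3 the TEAD core and 1 the antioxidant response motif (Gsta3). These shares were 25%, 25%, 18.8% and 6.25%, against 19.2%, 23.1%, 15.4% and 11.5% of the 26 members not called. Of the 3 that rose, 1 held the HNF1 motif and 2 the TEAD core. A match is a string of letters and does not show that a factor binds there.

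Together the members made up 0.870 to 0.884% of all counts in the wild-type soft libraries, 0.607 to 0.611% in the wild-type stiff libraries and 1.10 to 1.11% in the 4 knockout libraries. Their summed level was 8930 ± 103 CPM (SD, n = 2) in wild-type soft, 6230 ± 20.7 in wild-type stiff, 10800 ± 2.71 in knockout soft and 10800 ± 29.2 in knockout stiff cells. A few genes carried most of it. In wild-type soft cells Gstm1 held 27.9%, Gstp1 16.3% and Mgst1 9.66% of the summed member CPM, and the 5 highest members held 64.1%. Per kilobase of gene length, the scale on which genes can be compared with each other, the highest levels averaged over the 8 libraries were those of Gstm1 (1770 CPM per kb), Gstp1 (1030), Mgst1 (412), Gsta1 (398) and Gstm3 (376). Among the glucuronosyltransferases Ugt2b5 (179 CPM per kb), Ugt2b34 (121) and Ugt2b35 (80.6) led, and among the sulfotransferases Sult2a2 (50.6), Sult1a1 (12.1) and Sult1d1 (10.2).

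**Figure D1:**
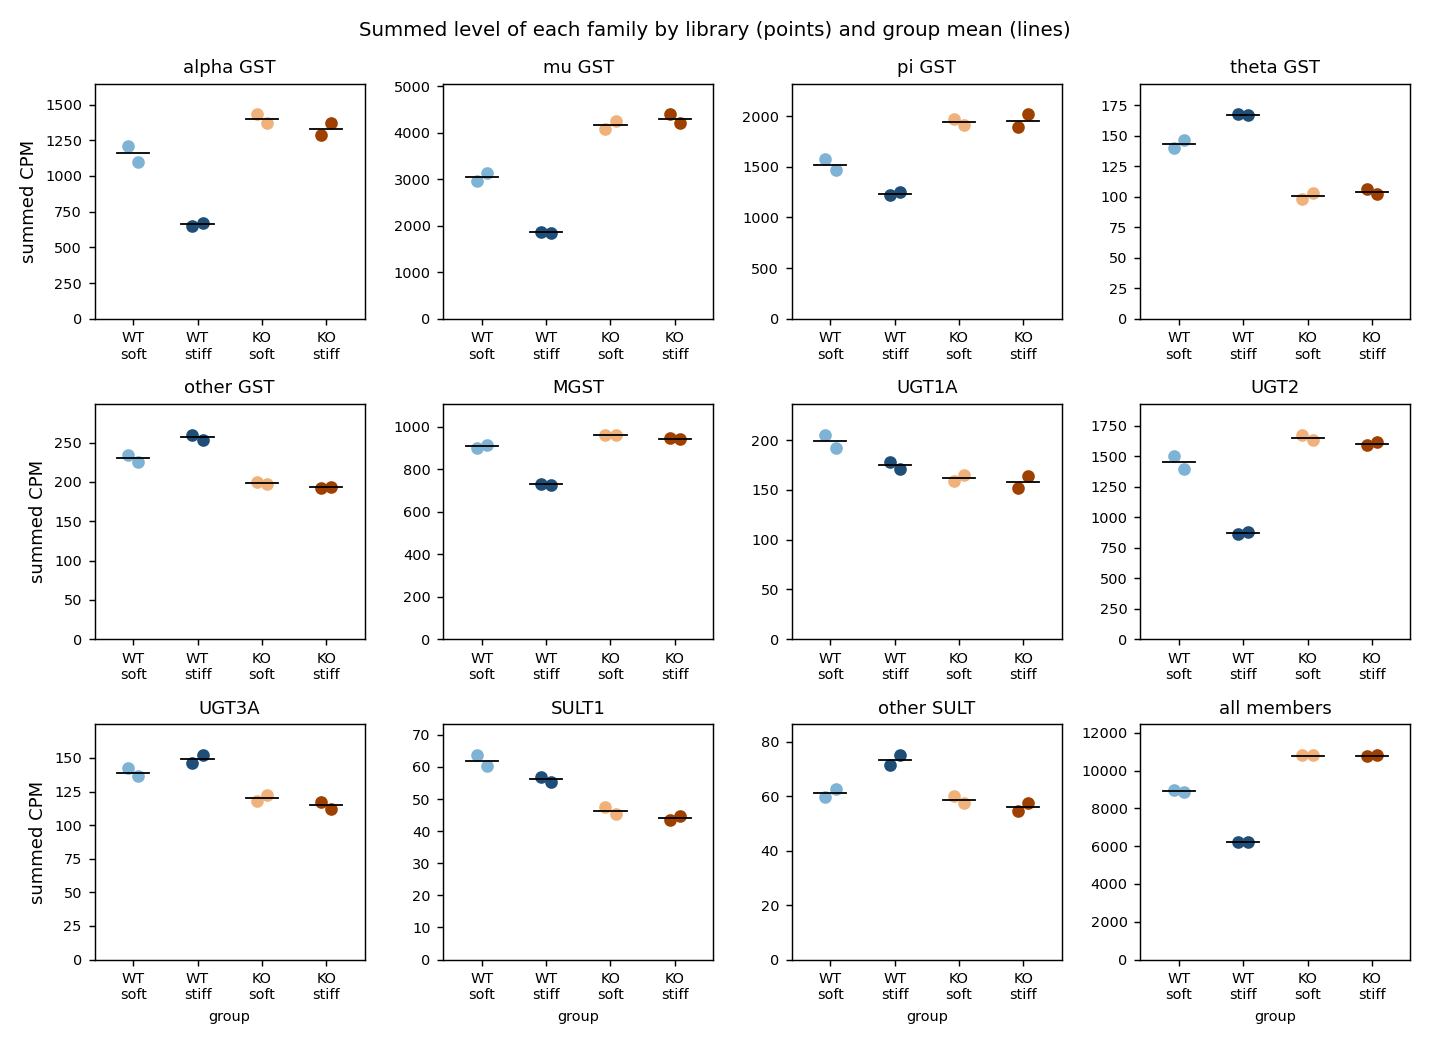
Summed CPM of the members of each family (y axis, from 0) in each library (points) with the mean of the 2 libraries (line), for wild-type (WT) and knockout (KO) cells on the soft and the stiff hydrogel. The alpha, mu and UGT2 sums of wild-type stiff cells lie at 660, 1860 and 869 CPM, below those of the other 3 groups, whereas the theta sum is highest there at 167 CPM.

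The first comparison asked what the stiff hydrogel did to these genes in wild-type cells. Of the 53 tested members 19 fell and 4 rose, that is 35.8% and 7.55%, where among all tested genes 9.26% fell and 10.0% rose (edgeR's quasi-likelihood test, called at an adjusted p of less than 0.05 by Benjamini-Hochberg with a log2 fold change beyond 0.5 either way). The median log2 fold change of the tested members was -0.31, against -0.009 over all tested genes. The falls lay in the alpha and mu classes of glutathione S-transferases, in the UGT1A and UGT2 families and in 2 sulfotransferases. No member of the pi, theta, microsomal or UGT3A groups passed the thresholds.

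All 5 alpha-class genes fell, and their summed level went from 1160 ± 77.9 CPM (SD, n = 2) on the soft hydrogel to 660 ± 13.5 on the stiff one. Gsta4, whose enzyme conjugates hydroxynonenal from oxidized lipids, was at 306 and 290 CPM in the soft and at 138 and 137 in the stiff wild-type libraries, and at 384 and 379 (soft) and 368 and 381 (stiff) in the knockout libraries. The stiff wild-type libraries were the low ones and did not overlap with any other group. The log2 fold change of Gsta4 in wild-type cells was -1.12 ± 0.043 (SE, adjusted p = 4.2e-13). Gsta1, the most abundant alpha-class gene, was at 413 and 361 CPM (soft) and 224 and 238 (stiff) in wild-type cells, with a log2 fold change of -0.74, and at 489 and 446 (soft) and 419 and 457 (stiff) in knockout cells. Gsta2 fell by 0.81 and Gsta3, which detoxifies the aflatoxin epoxide in mice, by 0.64 on the log2 scale. Gsta5 was low, with 17.7 and 10.8 CPM (soft) and 9.21 and 10.6 (stiff) in wild-type cells, where the second soft library lay close to the stiff ones. The fall of 0.55 in Gsta5 was lost without the first wild-type soft library (log2 fold change -0.12, adjusted p = 0.631) or without the first wild-type stiff library (-0.44, 0.151), and with robust empirical Bayes (adjusted p = 0.13). Counts of Gsta1, Gsta2 and Gsta5 are uncertain, since 87.8%, 54.2% and 40.9% of the 64-base windows of their longest transcripts recur in another gene, for Gsta1 mostly in the unnamed gene Gm3776.

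Of the 7 mu-class genes 4 fell, and the sum went from 3060 ± 126 to 1860 ± 17.6 CPM. Gstm1, the member with the highest level of all, was at 2410 and 2571 CPM in the soft and 1514 and 1497 CPM in the stiff wild-type libraries. In knockout cells it was at 3115 and 3204 (soft) and 3367 and 3189 (stiff). Its log2 fold change in wild-type cells was -0.73 ± 0.034 (adjusted p = 6.71e-12). Gstm3 was at 320 and 335 CPM (soft) and 172 and 176 (stiff) in wild-type cells, a fall of 0.91 on the log2 scale, and at 682, 777 (soft), 751 and 733 (stiff) in knockout cells. All 4 knockout libraries lay at over 2 times the highest wild-type library. Gstm4 and Gstm6 fell by 0.69 and 0.64. Gstm2 (log2 fold change -0.27), Gstm5 (-0.33) and Gstm7 (0.38) did not pass the fold threshold. Windows shared with other genes came to 18% for Gstm1 and 24.8% for Gstm3.

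Gstp1, the abundant pi-class gene, was at 1501 and 1402 CPM (soft) and 1149 and 1176 (stiff) in wild-type cells and at 1898, 1833 (soft), 1815 and 1938 (stiff) in knockout cells. Its log2 fold change of -0.32 in wild-type cells had an adjusted p of 1.94e-06 but stayed under the fold threshold, and Gstp1 and Gstp2 share 59.8% and 70.2% of their windows, mostly with each other. The theta class, which acts on small halogenated compounds, had values between -0.11 (Gstt2) and 0.42 (Gstt3), and its sum was 143 ± 4.68 CPM on the soft and 167 ± 0.239 CPM on the stiff hydrogel. Gsto1 (0.30), the mitochondrial and peroxisomal Gstk1 (0.32) and Gstz1 (-0.24), which is also the maleylacetoacetate isomerase of tyrosine breakdown, were not called either. Gstz1 overlaps Pomt2 on the other strand, at a mean of 799 counts, and how the counting used strand is not given in the sources used here. Mgst1, a membrane-bound transferase and peroxidase of the endoplasmic reticulum and mitochondria, was at 856 and 868 CPM (soft) and 697 and 690 (stiff) in wild-type cells and between 870 and 889 CPM in the 4 knockout libraries. Its log2 fold change was -0.31 ± 0.032 (adjusted p = 3.24e-07), again below the fold threshold. Mgst3 was at 45.8, 48.6 (soft), 35.6 and 36.7 CPM (stiff) in wild-type cells and at 78.2, 73.0 (soft), 71.8 and 70.9 in knockout cells, and Mgst2, which was not tested, was at or below 0.578 CPM.

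Among the UGT2 genes, whose enzymes glucuronidate steroids and many drugs, 4 of 8 tested members fell and the sum went from 1450 ± 76.9 to 869 ± 12.6 CPM. Ugt2b35 was at 274 and 249 CPM in the soft and 99.2 and 104 CPM in the stiff wild-type libraries, and at 370, 362 (soft), 350 and 360 (stiff) in knockout cells. The fall of Ugt2b35 was 1.37 on the log2 scale (SE 0.05, adjusted p = 1.9e-13). Ugt2b5 was at 359 and 345 CPM (soft) and 148 and 157 (stiff) in wild-type cells, a fall of 1.21, and at 426, 415 (soft), 411 and 405 (stiff) in knockout cells. These genes therefore kept to 1 pattern, low in wild-type stiff cells and highest in knockout cells. Ugt2b34 was at 543 and 511 CPM (soft) and 280 and 278 (stiff) in wild-type cells, a fall of 0.92, and between 629 and 655 in the knockout libraries, and the scarcer Ugt2b38 fell by 0.97. Ugt2b36 went the other way without reaching the fold threshold (log2 fold change 0.47, adjusted p = 2.81e-06), with 149 and 132 CPM (soft) and 193 and 197 (stiff) in wild-type cells and 84.6, 77.5 (soft), 77.4 and 76.0 (stiff) in knockout cells. For this gene the stiff wild-type libraries were the highest and the knockout libraries the lowest. Ugt2b1 (-0.45), Ugt2b37 (0.41) and Ugt2a3 (0.01) were not called. Of the windows of Ugt2b5 and Ugt2b38, 34.1% and 30.9% recur in another gene, mostly in each other. The fall of the scarce Ugt2b38 may therefore not be independent of that of Ugt2b5.

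In the UGT1A locus the summed level was 199 ± 9.33 CPM on the soft and 175 ± 4.45 CPM on the stiff hydrogel, since the leading genes changed little. Ugt1a9 (log2 fold change -0.26), Ugt1a1 (-0.38), which encodes the bilirubin-conjugating enzyme, and Ugt1a5 (0.30) were not called. The scarcer first exons changed more. Ugt1a6b was at 17.8 and 15.5 CPM (soft) and 7.52 and 5.44 (stiff) in wild-type cells and at 14.5, 19.2 (soft), 13.6 and 18.97 (stiff) in knockout cells, and fell by 1.36 (SE 0.18, adjusted p = 8.11e-06). Ugt1a6a, like Ugt1a6b an enzyme for phenols, was at 1.5, 1.0 (soft), 0.723 and 0.254 CPM (stiff) in wild-type cells and at 1.25, 1.59 (soft), 1.64 and 2.37 (stiff) in knockout cells. Ugt1a10 was at 0.924, 1.22 (soft), 0.193 and 0.559 CPM (stiff) in wild-type cells and between 0.791 and 1.14 in knockout cells. Ugt1a7c was at 7.32, 4.17 (soft), 2.65 and 2.49 CPM (stiff) in wild-type cells and at 5.74, 4.13 (soft), 4.12 and 10.52 (stiff) in knockout cells. These 3 low genes fell by 1.36, 1.49 and 1.19, with stiff wild-type libraries below the soft ones, but each call was lost with DESeq2 (adjusted p = 0.081, 0.0991 and 0.123). The call of Ugt1a7c was lost with robust empirical Bayes too (adjusted p = 0.216). Each of the 3 calls was also lost without a single library. Ugt1a6a then gave -1.0 (without the first wild-type soft library, adjusted p = 0.227) or -0.81 (without the second wild-type stiff library, 0.254). Ugt1a10 gave -1.69 and -1.30 (without the first or second wild-type soft library, 0.0506 and 0.135) and -0.91 (without the first wild-type stiff library, 0.274). Ugt1a7c gave -0.69 (without the first wild-type soft library, 0.225), -1.23 and -1.14 (without the first or second wild-type stiff library, 0.0571 and 0.0721).

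Ugt1a2 had 2 and 0 counts in the soft and 17 and 16 counts in the stiff wild-type libraries, and 0, 2 (soft), 6 and 0 counts (stiff) in knockout cells. The ratio of the stiff to the soft wild-type counts, per library total, was 17.9 with an exact 95% counting interval of 4.57 to 154, and the fitted log2 fold change of 4.01 (adjusted p = 0.0051) depends on how such low counts are smoothed. The gene stood out only in the stiff wild-type libraries. Between 37.8% and 79.5% of the windows of the Ugt1a transcripts are shared with another gene and the 9 genes overlap on the same strand, so that reads of the common exons could have been dropped or split by the counting, for which no rule is given in the sources used here. UGT3A genes, whose enzymes use other sugar donors than UDP-glucuronate, had log2 fold changes of 0.09 (Ugt3a2) and 0.30 (Ugt3a1).

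The sulfotransferases were split. Sult1e1, the estrogen sulfotransferase, was at 2.35 and 2.39 CPM (soft) and 0.627 and 0.305 (stiff) in wild-type cells and at 2.15, 1.24 (soft), 2.06 and 2.42 (stiff) in knockout cells. It had the largest fall of any tested member, 2.32 on the log2 scale (SE 0.4, adjusted p = 0.000133), and the stiff wild-type libraries lay below the other 6. Sult1d1, an enzyme for catecholamines, was at 26.8, 27.2 (soft), 12.2 and 15.8 CPM (stiff) in wild-type cells and at 31.6, 30.1 (soft), 26.8 and 29.6 (stiff) in knockout cells, and fell by 0.95 (adjusted p = 1e-06). The other called members, 3 in all, rose. Sult4a1, a brain-enriched member with no well established substrate, was at 1.43, 1.67 (soft) and 3.86, 3.86 CPM (stiff) in wild-type cells but at 0.117, 0.298 (soft), 0.328 and 0.445 in knockout cells. Its log2 fold change in wild-type cells was 1.33 ± 0.31 (adjusted p = 0.00185). Sult5a1 was at 3.70, 3.94 (soft), 6.56 and 5.44 CPM (stiff) in wild-type cells and at 1.95, 2.04 (soft), 1.36 and 1.93 in knockout cells. Sult1a1, the main phenol sulfotransferase, was at 25.6, 22.6 (soft), 36.3 and 33.2 CPM (stiff) in wild-type cells and at 8.00, 7.16 (soft), 7.45 and 6.23 in knockout cells. All 3 were highest in wild-type stiff cells and lowest in knockout cells. The rise of Sult5a1 (0.65, adjusted p = 0.0164) was lost with DESeq2 (0.0987) and without the first wild-type soft (0.61, 0.0881) or stiff library (0.52, 0.16), and that of Sult1a1 (0.52, adjusted p = 0.000429) fell under the fold threshold without the second wild-type soft (0.45) or the first wild-type stiff library (0.46). Sult1a1 overlaps Sgf29 on the other strand, at a mean of 251 counts. Sult2a2, a close copy among enzymes for bile acids and steroids, was at 34.3, 35.7 (soft), 38.9 and 40.0 CPM (stiff) in wild-type cells and between 35.8 and 40.0 in knockout cells, with a log2 fold change of 0.17 in wild-type cells. No tested Sult2a gene was called, with values between -0.15 (Sult2a5) and 0.32 (Sult2a8).

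**Figure D2:**
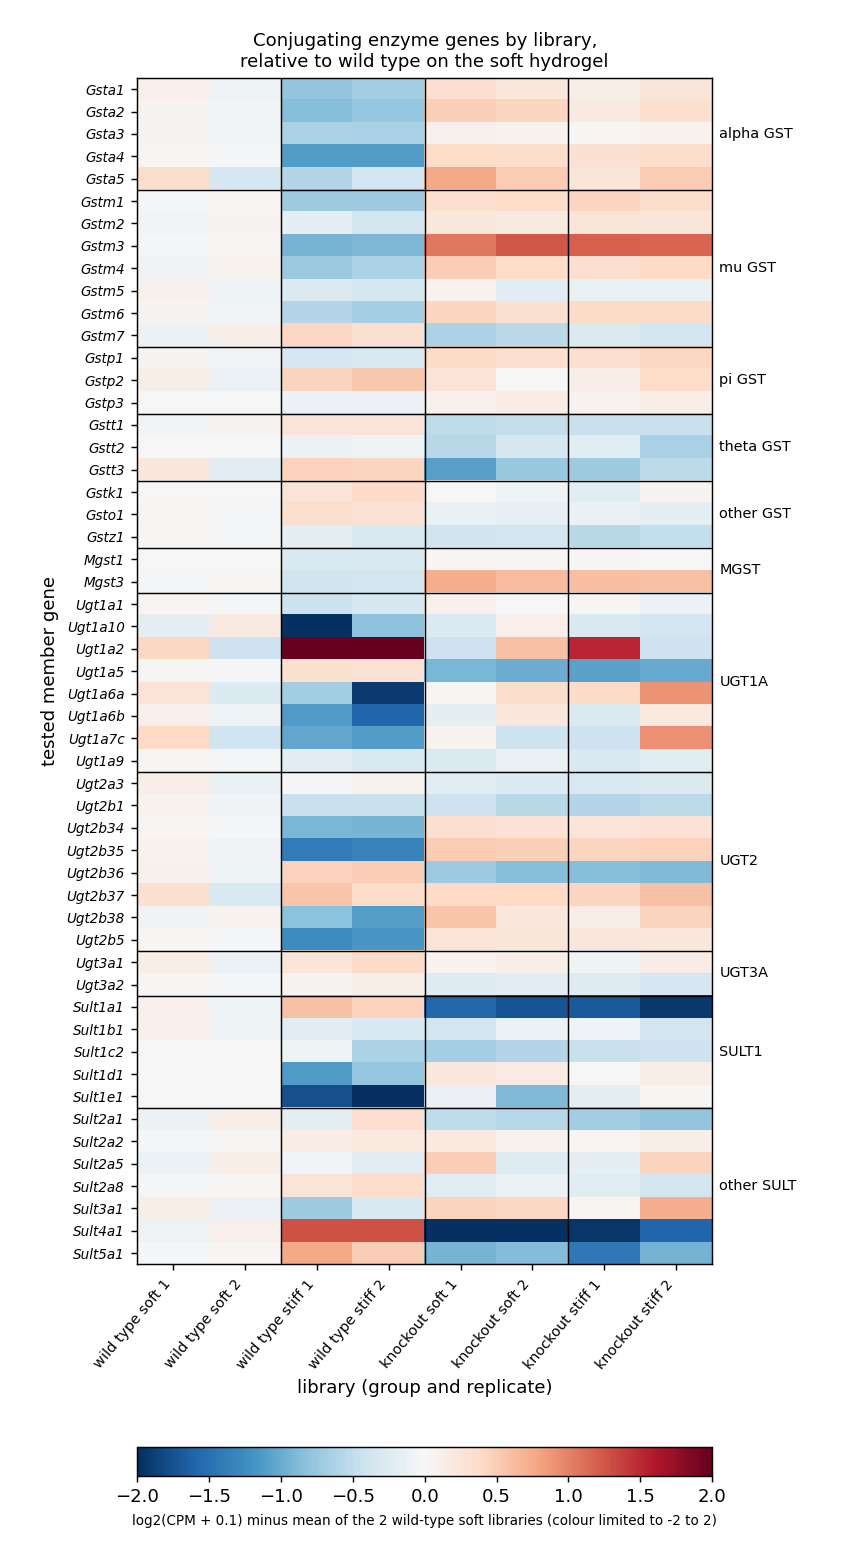
Heat map of the 53 tested members (rows, by family) in the 8 libraries (columns), as log2(CPM + 0.1) minus the mean of the 2 wild-type soft libraries, with the colour limited to values between -2 and 2. The wild-type stiff columns are blue for the alpha class, most of the mu class and the UGT2 genes other than Ugt2b36, Ugt2b37 and Ugt2a3, and the knockout columns are alike on both hydrogels.

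In knockout cells the same step in stiffness gave no call among the members. With edgeR 0 of 53 members rose or fell, where 0.0140% of all tested genes rose and 0.00700% fell, and DESeq2 called none either. At an unadjusted p under 0.05 there were 2 members, Gsta2 (log2 fold change -0.20) and Gstz1 (-0.14), where all tested genes had 1077 of 14279. The 19 members that fell in wild-type cells had log2 fold changes between -0.28 (Ugt1a10) and 0.55 (Ugt1a7c) here. For well-counted genes the 95% intervals were narrow, from -0.11 to 0.06 for Gsta4, from -0.02 to 0.12 for Gstm1, from -0.14 to 0.05 for Ugt2b35 and from -0.13 to 0.04 for Ugt2b5. Low genes were less closely bounded, with an interval of -0.30 to 1.06 for Sult1e1 and of -1.43 to 4.60 for Ugt1a2.

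**Figure D3:**
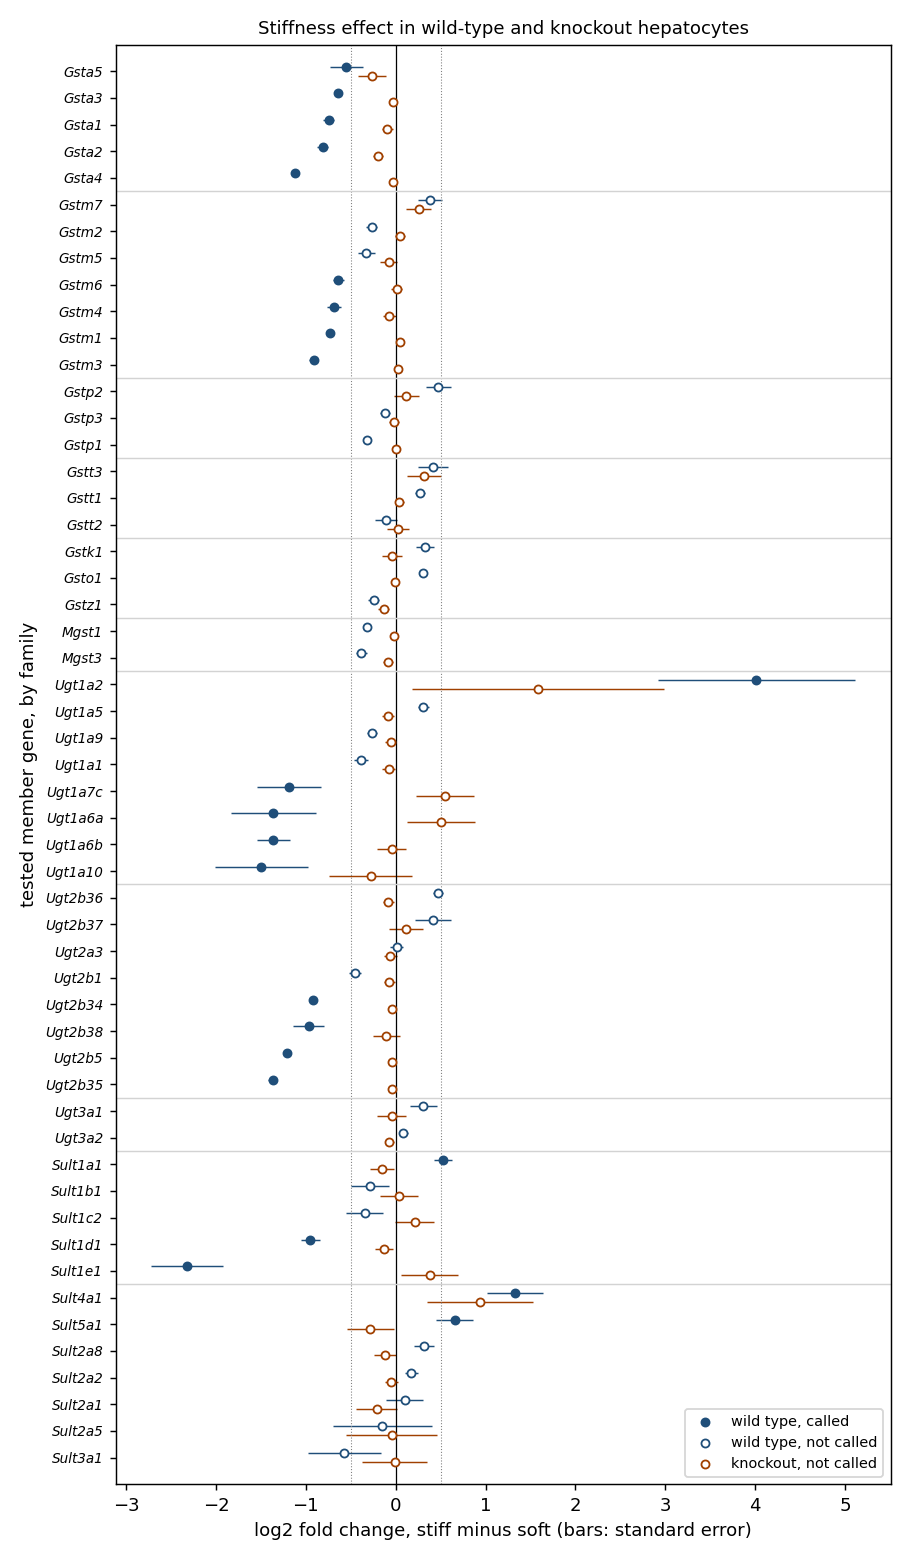
Log2 fold change of stiff against soft (x axis) for the 53 tested members (y axis, by family) in wild-type (blue) and knockout (brown) cells, with bars of 1 standard error, filled symbols for called members and dotted lines at the fold threshold of 0.5. Filled symbols occur in wild-type cells only, 19 to the left and 4 to the right of 0, and most knockout values lie near 0.

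The difference itself, the stiffness effect in knockout minus that in wild-type cells, was called for 20 members. It was positive for 17 (32.1%), where 8.64% of all tested genes were called positive, and negative for 3 (5.66% against 8.21%). All 17 were members that fell in wild-type cells. That fall enters the difference with its sign reversed, from the same libraries, so that this overlap is largely built in. The largest positive differences were those of Sult1e1 (2.70 ± 0.52, adjusted p = 0.000631), Ugt1a6a (1.86 ± 0.61, 0.0279) and Ugt1a7c (1.74 ± 0.48, 0.0105), and the best supported were Ugt2b35 (1.32 ± 0.068, 7.37e-11), Ugt2b5 (1.17 ± 0.06, 7.37e-11) and Gsta4 (1.09 ± 0.059, 1.4e-10). For Gsta5 (0.29, adjusted p = 0.416) and Ugt1a10 (1.22, 0.213), which also fell in wild-type cells, the difference was not called. The 3 negative ones were Sult5a1 (-0.94, adjusted p = 0.0415), Sult1a1 (-0.68, 0.00528) and Ugt2b36 (-0.55, 6.48e-05). The call of Sult5a1 was lost with DESeq2 (adjusted p = 0.158), and the calls of Ugt1a6a and Ugt1a7c were lost with it too (0.0926 and 0.123). With robust empirical Bayes the call of Ugt1a7c was lost as well (adjusted p = 0.213). Without the second knockout stiff library, which held 213 counts of Ugt1a7c against 88 in the first, Ugt1a7c gave 0.91 (adjusted p = 0.0945) and Ugt1a6a 1.57 (0.0946). Without the first wild-type soft library they gave 1.23 (0.0784) and 1.5 (0.134), and Ugt1a6a gave 1.31 (0.145) without the second wild-type stiff and 1.68 (0.0872) without the first knockout soft library. Sult5a1 lost its call in 6 of the 8 fits that left out a library, all but those without the second wild-type stiff or the second knockout stiff library, with adjusted p from 0.0554 to 0.176. Ugt2b36 gave -0.49, under the fold threshold, without the second wild-type soft or the first knockout soft library, and Ugt2b38 gave 0.72 (adjusted p = 0.056) without the second wild-type stiff library.

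On the soft hydrogel, knockout cells were compared with wild-type cells, a comparison that shares its wild-type soft libraries with the first. Of the 53 members 3 were higher (5.66%) and 8 lower (15.1%) in knockout cells, where 2.02% of all tested genes were higher and 4.65% lower. Gstm3 was 2.23 times as high (log2 fold change 1.16 ± 0.05, adjusted p = 1.23e-11), Mgst3 1.61 times (0.68 ± 0.06, 1.23e-07), and Gsta5 1.49 times (0.58, adjusted p = 0.0189). The lower ones were led by Sult4a1 (-2.92 ± 0.46, adjusted p = 0.000151) and Sult1a1 (-1.67 ± 0.12, 6.22e-09), followed by Gstt3 (-0.97), Ugt1a5 (-0.96), Sult5a1 (-0.93), Ugt2b36 (-0.79), Sult1c2 (-0.66) and Gstm7 (-0.59). Gstt3 was at 9.21 and 6.78 CPM in wild-type soft and 10.9 and 10.6 in wild-type stiff libraries, and at 3.67, 4.62 (soft), 4.78 and 5.49 (stiff) in knockout libraries, so that all knockout values lay below all wild-type values. In knockout cells Gsta5 was at 23.4 and 19.7 CPM (soft) and 16.4 and 19.7 (stiff). The call of Gsta5 was lost without the second wild-type soft library (0.29, adjusted p = 0.202) or the first knockout soft library (0.44, 0.211). Those of Sult1c2 (DESeq2 adjusted p = 0.195, and 0.104 to 0.196 with any single library of either group left out) and Gstm7 (-0.54, 0.0628 without the first knockout soft and -0.47, 0.0582 without the second wild-type soft library) were lost too, as was that of Sult5a1 (-0.90, 0.0618) without the first knockout soft library.

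On the stiff hydrogel 22 members (41.5%) were higher and 11 (20.8%) lower in knockout than in wild-type cells, where 13.7% of all tested genes were higher and 15.0% lower. This comparison shares the wild-type stiff libraries with the first one, so that each gene low or high there enters both. All 5 alpha-class genes were higher, by log2 fold changes of 0.69 (Gsta3) to 1.45 (Gsta4), and 5 of 7 mu-class genes, led by Gstm3 at 4.27 times the wild-type level (2.09 ± 0.052, adjusted p = 4.34e-16) and Gstm1 at 2.18 times (1.12). Sult1e1 (2.24 ± 0.4, adjusted p = 0.000147), Ugt1a6a (2.01 ± 0.45, 0.00116) and Ugt2b35 (1.81 ± 0.05, 1.67e-15) were also among the largest differences. Gstp1 (0.69) and Mgst3 (0.98) were higher as well. The lower members were Sult4a1 (-3.31 ± 0.38, adjusted p = 7.85e-07), Ugt1a2 (-2.46 ± 0.86, 0.0241), Sult1a1 (-2.34 ± 0.12, 8.09e-12), Sult5a1 (-1.87), Ugt2b36 (-1.35), Ugt1a5 (-1.35), Gstt3 (-1.07), Sult2a1 (-0.85), Gstt1 (-0.72), Gstm7 (-0.71) and Sult2a8 (-0.62). Of these 11, 7 were lower in knockout cells on the soft hydrogel too, where 4.65% of all tested genes were lower. Of the 22 higher members Gstm3, Mgst3 and Gsta5 were higher on the soft hydrogel as well. How many of all genes called on stiff were also called on soft was not counted. The call of Ugt1a2 was lost without the second knockout stiff library (-1.53, adjusted p = 0.188) or either wild-type stiff library (0.092 and 0.097). The call of Sult3a1 (1.00, adjusted p = 0.0452) was lost in 10 of the alternatives. That of Ugt1a7c (1.5) was lost with robust empirical Bayes (adjusted p = 0.111). It was also lost without the second knockout stiff library, where Ugt1a7c gave 0.67. Without the second wild-type stiff library Sult2a1 gave -0.57 (adjusted p = 0.0912) and Gstm2, otherwise at 0.52, gave 0.42.

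In several gene clusters the members that fell lay next to members that did not. In the UGT2 cluster on chromosome 5 the order in the deposited table is Ugt2b34, Ugt2b1, Ugt2b35, Ugt2b36, Ugt2b5, Ugt2b37, Ugt2a3 and Ugt2b38, with wild-type log2 fold changes of -0.92, -0.45, -1.37, 0.47, -1.21, 0.41, 0.01 and -0.97. The falling genes thus alternated with others that had values of either sign, although Ugt2b5 and Ugt2b38 share part of their sequence. The sulfotransferase genes Sult1b1 (-0.28), Sult1d1 (-0.95) and Sult1e1 (-2.32) follow on the same chromosome. In the UGT1A locus on chromosome 1 Ugt1a10 (-1.49), Ugt1a7c (-1.19), Ugt1a6b (-1.36) and Ugt1a6a (-1.36) lie upstream of Ugt1a5 (0.30), Ugt1a2 (4.01) and Ugt1a1 (-0.38), with Ugt1a9 (-0.26) between the first 2. On chromosome 3 the mu-class genes Gstm6, Gstm3, Gstm2, Gstm1 and Gstm4 follow each other with values of -0.64, -0.91, -0.27, -0.73 and -0.69, next to Gstm7 at 0.38. On chromosome 9 the alpha-class genes Gsta4, Gsta1, Gsta5 and Gsta2 had values of -1.12, -0.74, -0.55 and -0.81, and Gsta3, the only alpha-class gene on chromosome 1, had -0.64.

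**Figure D4:**
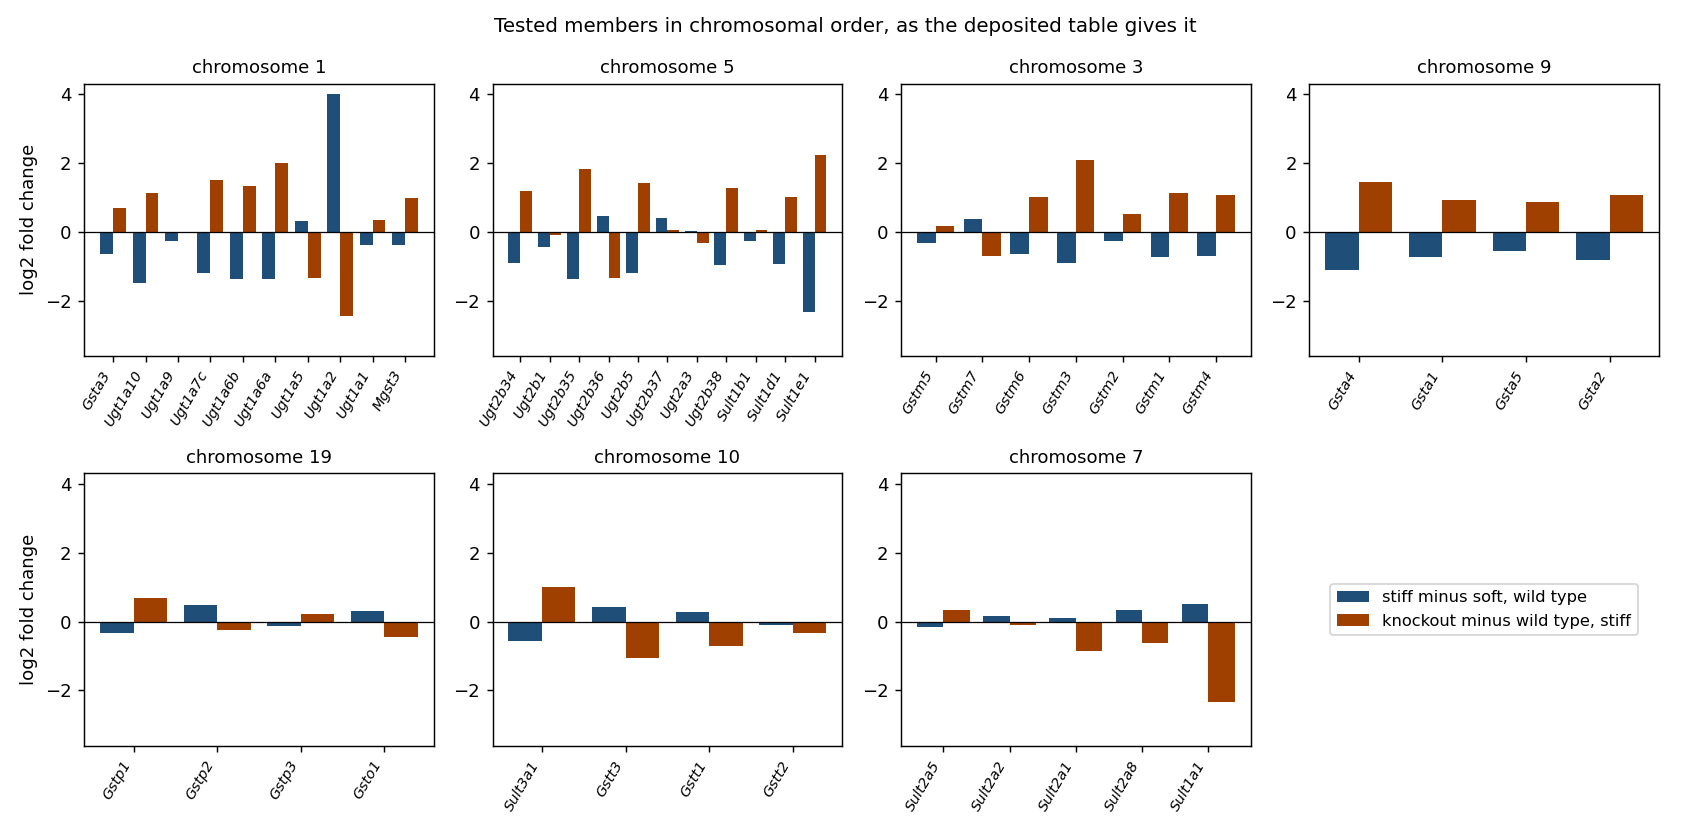
Log2 fold changes (y axis) of tested members on 7 chromosomes, in chromosomal order (x axis, evenly spaced), for stiff against soft in wild-type cells (blue) and for knockout against wild type on the stiff hydrogel (brown), which share the wild-type stiff libraries. The values of Ugt2b36 (0.47 and -1.35) have the opposite signs of those of its neighbours Ugt2b35 (-1.37 and 1.81) and Ugt2b5 (-1.21 and 1.42).

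Genes that supply the cofactors were then followed. Of 15 tested genes of glutathione supply and turnover 5 fell and 1 rose in wild-type stiff cells. Among all tested genes 9.26% fell and 10.0% rose in that comparison, the background for this and the other lists. Slc7a11, the cystine importer that feeds glutathione synthesis, went from 405 ± 14.3 to 101 ± 2.82 CPM (SD, n = 2; log2 fold change -2.01, adjusted p = 1.36e-16), and Gclc, the catalytic subunit of the rate-limiting ligase, from 834 ± 11.7 to 427 ± 4.65 CPM (-0.96, 1.24e-13). In knockout cells Slc7a11 was at 586 ± 8.54 (soft) and 599 ± 1.56 CPM (stiff), and Gclc at 1060 and 1070 CPM. Cbs, which leads homocysteine toward cysteine, rose from 109 ± 3.66 to 170 ± 3.53 CPM (0.65, adjusted p = 9.13e-09). Of the 7 tested genes around UDP-glucuronate 3 fell and none rose, Ugdh, which oxidizes UDP-glucose to UDP-glucuronate, from 596 ± 33.1 to 283 ± 5.13 CPM (-1.07, 4.12e-13), the transporter gene Slc35d1 by 0.83 and Ugp2, which makes UDP-glucose, by 0.63. None of the 10 tested genes of PAPS supply and sulfate removal was called (edgeR), with values from -0.16 (Tpst1) to 0.26 (Bpnt1), although Slc26a1, a sulfate transporter gene singled out after its values were seen, was lower in knockout than in wild-type cells on both hydrogels (-0.70 on soft, -0.51 on stiff).

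Among 10 tested genes of conjugate export 4 fell and 2 rose in wild-type stiff cells, where 9.26% of all tested genes fell and 10.0% rose. Abcc2, the canalicular exporter of glutathione and glucuronide conjugates, went from 642 ± 18.8 to 236 ± 5.92 CPM (log2 fold change -1.44, adjusted p = 2.3e-15), and Abcc4, an exporter toward blood, from 188 ± 8.82 to 71.6 ± 0.586 CPM (-1.39, 7.82e-14). Abcg2, which exports sulfate conjugates, rose from 47.0 ± 2.82 to 118 ± 4.67 CPM (1.33, 4.23e-12) and Abcc5 from 22.0 ± 1.12 to 40.7 ± 1.36 CPM (0.88, 1.82e-07). No gene of these 4 lists was called in knockout stiff against soft (edgeR), where 0.0140% of all tested genes rose and 0.00700% fell. The difference between genotypes was called for 7 of 15 glutathione genes (6 positive), for 3 of 7 UDP-glucuronate genes (all positive), for none of 10 PAPS genes and for 6 of 10 export genes (4 positive). Over all tested genes 8.64% were called positive and 8.21% negative.

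**Figure D5:**
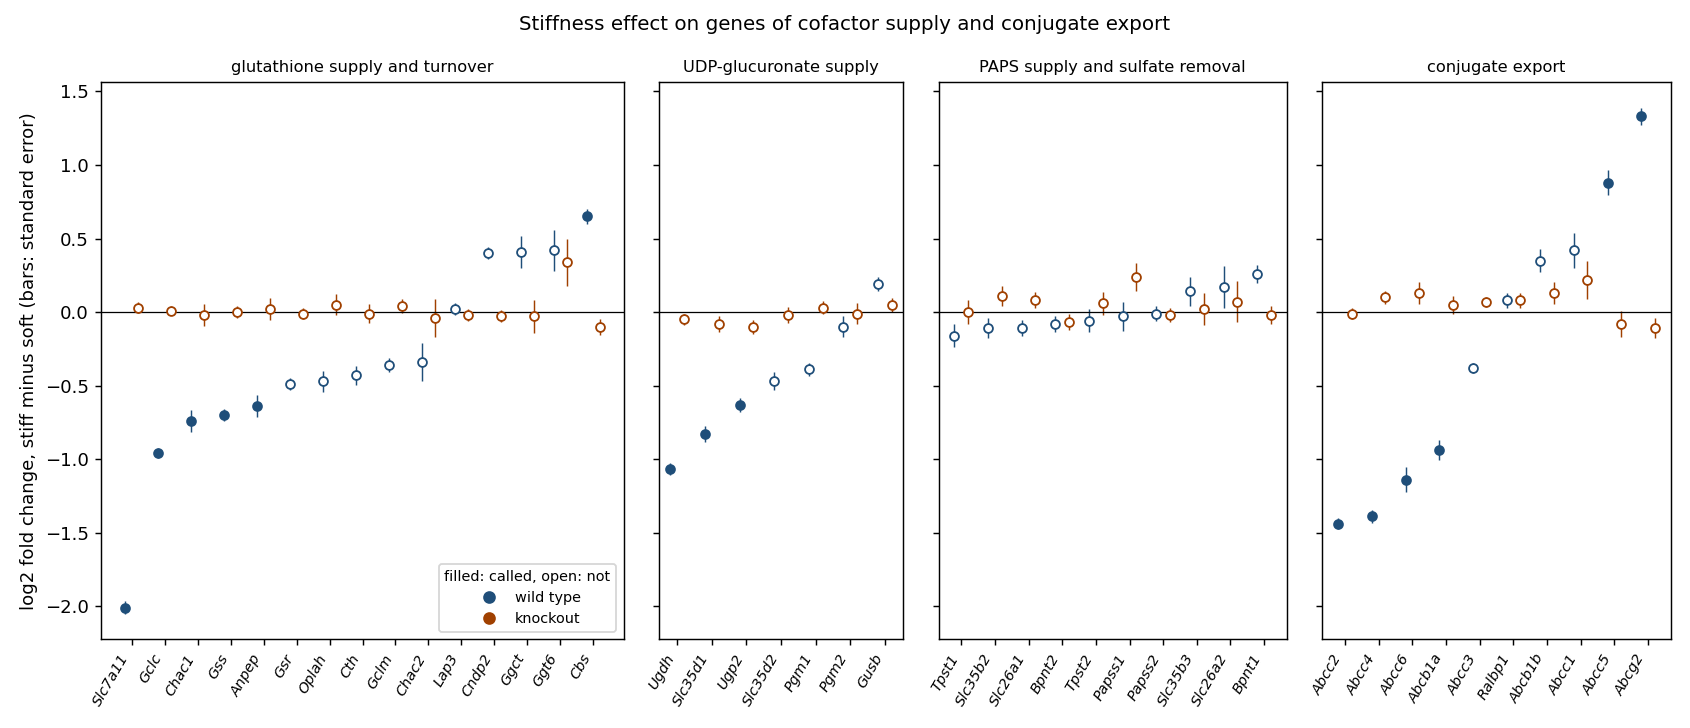
Log2 fold change of stiff against soft (y axis) with 1 standard error for the tested genes of 4 lists (x axis, ordered within each list by the wild-type value), in wild-type (blue) and knockout (brown) cells, filled where called. Slc7a11 is lowest at -2.01 and Abcg2 highest at 1.33 in wild-type cells, the PAPS genes stay between -0.16 and 0.26, and no knockout symbol is filled.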

How the data were processed

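RNA of mouse primary hepatocytes was sequenced in 8 libraries, 2 in each of 4 groups taken from the labels. Per the labels and the study's methods, the authors mapped paired-end reads by HISAT2 2.0.5, assigned them to genes by featureCounts and deposited raw counts per gene without normalization. The submitters' processing notes also name DESeq2 1.20.0, edgeR 3.22.5, GATK 4.1.4.1 and the build mm9. Gene positions in the deposited table differ from those of the GRCm38 reference used here, so none of them is printed. That table gave chromosomes, gene order, strands, overlaps between genes and gene lengths. The study's methods name dUTP in the cDNA synthesis. The rules that the counting used for strand and for reads that match several genes are not given in the sources used here.

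The analysis of the counts used edgeR 4.0.16 under R 4.3.3. Genes were filtered with filterByExpr (14279 of 56748 kept), scaled by TMM (factors 0.978 to 1.02) and fitted with glmQLFit over all 8 libraries with 4 residual degrees of freedom. Each comparison used glmQLFTest, and a gene was called at a Benjamini-Hochberg adjusted p below 0.05 and a log2 fold change beyond 0.5 either way. Stiff was compared with soft within a genotype, both of these effects with each other (interaction), and knockout with wild-type cells on one hydrogel at a time. CPM are counts scaled to the tested genes' total after TMM, and log2 intervals are 95% intervals from the fit. Values for every library were given for the 3 members of the Gst, Mgst, Ugt and Sult groups with the highest CPM per kb, for up to 8 of the largest rises (there were 4) and falls in wild-type cells and for the 3 largest called changes each way in the other comparisons. Shared sequence was taken as the percentage of windows of 64 bases in the longest GENCODE M21 transcript of a gene that recur in that of any other gene. Plots used matplotlib 3.10.9 (Python 3.11.15). Steps were tested on simulated counts. Alternatives were DESeq2 1.42.0, 2 other scalings, 2 other filters, 2 other fold thresholds, robust empirical Bayes, fits of only the groups compared, a replicate block, members with little shared sequence, and leaving out every library once. The members and gene lists were chosen with earlier results of these data known.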

Additional observations from a re-analysis of the deposited data

Results flagged for a closer look

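The effect of stiffness differed between genotypes for 20 members, by the interaction term of the fit (knockout minus wild type, edgeR, adjusted p under 0.05 and an absolute value over 0.5), and these differences are listed here on the log2 scale. In the alpha class it was 1.09 for Gsta4, 0.65 for Gsta1, 0.61 for Gsta2 and 0.61 for Gsta3. In the mu class it was 0.94 for Gstm3, 0.78 for Gstm1, 0.65 for Gstm6 and 0.62 for Gstm4. In the UGT2 family Ugt2b35 gave 1.32, Ugt2b5 1.17, Ugt2b34 0.88, Ugt2b38 0.86 and Ugt2b36 -0.55. In the UGT1A locus Ugt1a6a gave 1.86, Ugt1a7c 1.74 and Ugt1a6b 1.32. Among the sulfotransferases the values were 2.70 for Sult1e1, 0.82 for Sult1d1, -0.68 for Sult1a1 and -0.94 for Sult5a1.

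The 17 positive values belong to genes that fell in wild-type cells on the stiff hydrogel, an overlap largely built in because the wild-type effect is part of the difference. In knockout cells those genes had log2 fold changes between -0.20 (Gsta2) and 0.55 (Ugt1a7c). Of the negative ones, Sult1a1 and Sult5a1 rose in wild-type cells. The calls of Ugt1a6a, Ugt1a7c, Ugt2b36, Ugt2b38 and Sult5a1 were lost with at least 1 library left out. Among all tested genes 8.64% were called positive. Marker genes of endothelial cells gave positive differences as well (6 of 10), as did 4 of 10 stellate and 3 of 10 Kupffer cell markers, and their part in these values was not tested.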

How the results depend on the processing

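Of 1358 values of single members under the alternatives, 1289 kept their direction and their call, 69 kept their direction but lost the call, and none reversed, and for 67 of 87 called results every alternative kept the call. DESeq2 gave no adjusted p for 2 further values, both of Ugt1a2. Counts of members moved by over 1.5 times in these cases. In wild-type stiff against soft 2 rather than 4 members rose with DESeq2 and under a filter of 10 counts per library, and 12 with no minimum fold change. Under that last setting the count of negative differences between genotypes was 7 rather than 3, that of members higher or lower in knockout cells on soft 14 and 16 rather than 3 and 8, and that of members lower on stiff 17 rather than 11. With an absolute log2 fold change over 1, 2 members rose and 8 fell in wild-type cells, 7 differences between genotypes were positive and 0 negative, 1 member was higher and 2 lower in knockout cells on soft, and 7 were lower on stiff. Among the 43 of 68 members with under 10% shared sequence, tested or not, 8 fell in wild-type cells and 8 differences were positive. Of these members 1 on soft and 11 on stiff were higher in knockout cells. Some of the 43 were not among the 53 tested members, so that these counts are not shares of 43. Among all tested genes 9.26% fell in wild-type cells and 8.64% had a positive difference. Of all tested genes 2.02% on soft and 13.7% on stiff were higher in knockout cells. Fewer members are counted under this setting, and whether the share called differs as well was not tested.

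Leaving out each library in turn gave 3 to 7 rises and 15 to 20 falls in wild-type cells, 15 to 18 positive and 1 to 4 negative differences between genotypes, 2 to 6 members higher and 6 to 9 lower in knockout cells on soft, and 20 to 22 higher and 9 to 12 lower on stiff. The extremes of 7 rises and 6 higher members came without the first wild-type soft library, and 1 negative difference remained without the second wild-type soft or the first knockout soft library; the cause was not tested. Members called in knockout stiff against soft numbered 0 in all of these fits. Deviations of same-numbered libraries were hardly correlated between groups (-0.101 to 0.042), which cannot tell whether such libraries share an animal or a preparation. With a replicate block 4 members rose and 19 fell in wild-type cells, 17 differences were positive and 2 negative, 3 members were higher and 7 lower in knockout cells on soft, and 21 higher and 11 lower on stiff. Scaling by upper quartiles or median ratios moved the median of all genes by under 0.03. Depth limits scarce members, such as Ugt1a2, with 0 to 17 counts per library, Ugt1a10, with 4 to 24, and Ugt1a6a, with 5 to 48.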

Other observations

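Of 23 tested genes for other enzymes of conjugation and detoxification 11 fell and 4 rose in wild-type stiff cells, and none was called in knockout stiff against soft (edgeR). Over all tested genes 9.26% fell and 10.0% rose in wild-type cells, and 0.00700% fell and 0.0140% rose in knockout cells. Cbr3, a carbonyl reductase, went from 30.3 ± 4.56 to 11.4 ± 0.0356 CPM (SD, n = 2; log2 fold change -1.40, adjusted p = 8.98e-09), and Baat, which joins bile acids to taurine or glycine, from 44.9 ± 0.177 to 17.5 ± 0.682 CPM (-1.36, 2.49e-10). Nnmt, the nicotinamide methyltransferase, rose from 22.1 ± 2.32 to 82.1 ± 0.844 CPM (1.89, 2.08e-12) and Aldh1a1, a retinaldehyde dehydrogenase, from 346 ± 13.6 to 1030 ± 11.5 CPM (1.58, 2.64e-14). On the stiff hydrogel both were lower in knockout than in wild-type cells, by log2 fold changes of -2.82 and -2.80.

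Among 24 tested genes known to regulate conjugating enzymes 6 fell and 1 rose in wild-type stiff cells. Over all tested genes 9.26% fell and 10.0% rose. Bcl6 went from 24.4 ± 0.361 to 11.3 ± 0.771 CPM (-1.11, adjusted p = 1.35e-07), Cebpa from 90.4 ± 10.1 to 45.3 ± 3.08 CPM (-0.99, 5.08e-09) and Hnf4a from 372 ± 9.46 to 189 ± 4.66 CPM (-0.98, 2.44e-12), while Maff rose from 45.3 ± 0.688 to 75.1 ± 1.94 CPM (0.73, 3.38e-08). Hnf4a, Nfe2l2 and Nr1i3 were singled out after their values were seen. Nfe2l2, the main activator at antioxidant response elements, had a log2 fold change of 0.26 (adjusted p = 0.000479) and was not called. Nr1i3, the constitutive androstane receptor gene, was near the detection limit, with group means of 0.411 to 0.543 CPM. In knockout cells no gene of this list was called in stiff against soft (edgeR), Hnf4a being at 423 ± 3.95 and 426 ± 16.6 CPM.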
